A study of Mus musculus with 4 samples.

Results

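The 9 genes described here, Il1b, Il1r2, Il1rn, Cxcl2, Ptgs2, Nfkbia, Tnfaip3, Clec4d and Clec4e, were chosen by symbol from the 32287 genes of the deposited feature tables, and all 9 were found. They were followed in droplet single-cell RNA sequencing of peripheral blood leukocytes from C57BL/6J mice aged 10 weeks that had been inoculated with acute lymphoblastic leukemia and given dasatinib, a tyrosine kinase inhibitor. All mice were in remission when blood was drawn, 1 week into dasatinib, and dosing went on for 4 further weeks. The leukocytes were frozen, later thawed and sorted for live cells. Mice were assigned to groups afterwards, from their state at day 100 of the experiment: 6 Cured mice were still in remission and 6 Relapsed mice were not. Each library pooled 3 mice, which gave 2 Cured and 2 Relapsed libraries, and no library of untreated or leukemia-free mice was analysed here. Nothing in the labels separates the mice within a pool, so the pool is the unit of each test. The tests share information on spread between genes, so a p-value does not measure a gene's own spread between pools alone.

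Interleukin-1 beta, the product of Il1b, is made by myeloid cells as an inactive precursor that inflammasome proteases cut before release. It binds a signalling receptor on target cells, while the decoy receptor encoded by Il1r2 and the receptor antagonist encoded by Il1rn limit that signal. Signalling reaches the transcription factor NF-kB, whose targets include the neutrophil-attracting chemokine gene Cxcl2, the prostaglandin-forming cyclooxygenase gene Ptgs2, and the feedback inhibitors Nfkbia, which holds NF-kB in the cytoplasm, and Tnfaip3, a ubiquitin-editing enzyme. Clec4d and Clec4e encode C-type lectin receptors of myeloid cells that sense microbial glycolipids. Blood neutrophils and monocytes are known for fast induction of many of these genes.

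Of 15439 cells kept, 994 were gated as neutrophils, 88 as classical monocytes, 218 as non-classical monocytes, 316 as monocytes of either kind (these 2 classes and cells that met neither gate) and 13447 as lymphocytes. A monocyte that met both gates went to the kind with more of its markers, and to classical monocytes when these were equal. The names stand for marker gates and not for sorted populations. Neutrophils numbered 237, 204, 378 and 175 in Cured replicate 1, Cured replicate 2, Relapsed replicate 1 and Relapsed replicate 2, an order kept for all values by library below, and made up 6.27%, 4.93%, 11.6% and 4.10% of the cells kept. Their median depth was 916.5 to 1111.5 unique molecular identifiers (UMIs, each standing for 1 captured RNA molecule), against 4570 to 5302 in classical monocytes, 2027 to 2437 in non-classical monocytes and 1888 to 2384 in lymphocytes. All 14 neutrophil markers had UMIs in the neutrophils of each library, summing to 205856 to 252683 CPM (UMIs per 1000000 UMIs of the summed class), whereas monocyte markers of either kind summed to 2613 to 4550 CPM with Ms4a6b at 0 in all 4. In both monocyte kinds the neutrophil markers summed to 244 to 741 CPM, with Ly6g and Mmp9 at 0 in all 4 libraries. Most of these markers also set the gates, so these sums follow in large part from the gating. They are not separate support for the class names. Relapsed replicate 1 stood apart in red cell RNA: the haemoglobin and red cell markers summed to 2391 CPM in its neutrophils and to 31.8 CPM or less in those of the other libraries. Between 20 and 29 cell barcodes were shared by each pair of libraries, and 0 of these were neutrophils in both. Between 80 and 119 cells per library carried markers of more than 1 lineage and were left out.

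All 9 genes are protein-coding in the GENCODE annotation of the mouse genome build GRCm38 (mm10). Il1b lies at chr2:129364570-129371139 on the minus strand and Il1rn at chr2:24336853-24351494 on the plus strand. Il1r2 spans chr1:40074079-40125231 and Ptgs2 chr1:150100031-150108227, both on the plus strand. Cxcl2 lies at chr5:90903871-90905938 (plus), Nfkbia at chr12:55489410-55492647 (minus) and Tnfaip3 at chr10:19000910-19015657 (minus). The lectin receptor genes are neighbours on chromosome 6, with Clec4d at chr6:123262111-123275265 (plus) and Clec4e at chr6:123281789-123289870 (minus), 6524 bases apart. Il1b shares its locus with the antisense gene Il1bos, which had 2, 3, 4 and 3 UMIs in neutrophils against 1177, 1299, 1719 and 812 for Il1b. Whether counting used the strand is not given in the sources used here.

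Because several members are NF-kB targets, the 250 bases before each RefSeq transcription start were searched on both strands for the kappa-B consensus decamer, the DNA sequence bound by NF-kB dimers. The 9 genes have 12 such windows, and 3 of the 12, those of Cxcl2, Nfkbia and Tnfaip3, held at least 1 match, against 7.25% of 32851 mouse upstream windows of the same length. The sequences below are from the RefSeq promoter table (GRCm38.p6), written 5′ to 3′ on the strand of the gene, with kappa-B matches in capitals. Il1b is shown as the member with the highest count in neutrophils, and its window held no match. The Il1b window is chr2:129371140-129371389 (minus strand), that of Nfkbia is chr12:55492648-55492897 (minus) and the stretch shown for Cxcl2 is chr5:90903649-90903870 (plus). It ends where the GENCODE gene begins, and the last 28 bases of the searched window, up to the RefSeq start, are not shown.
Il1b: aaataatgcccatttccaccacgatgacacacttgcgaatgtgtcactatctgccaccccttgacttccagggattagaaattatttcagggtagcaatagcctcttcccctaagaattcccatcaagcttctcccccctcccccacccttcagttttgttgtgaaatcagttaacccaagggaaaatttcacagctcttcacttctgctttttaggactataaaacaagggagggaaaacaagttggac
Nfkbia: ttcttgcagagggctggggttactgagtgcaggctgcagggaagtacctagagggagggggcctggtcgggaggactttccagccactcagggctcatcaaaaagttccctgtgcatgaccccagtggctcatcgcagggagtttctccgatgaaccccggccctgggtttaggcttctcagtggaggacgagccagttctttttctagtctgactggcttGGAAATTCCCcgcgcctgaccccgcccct
Cxcl2: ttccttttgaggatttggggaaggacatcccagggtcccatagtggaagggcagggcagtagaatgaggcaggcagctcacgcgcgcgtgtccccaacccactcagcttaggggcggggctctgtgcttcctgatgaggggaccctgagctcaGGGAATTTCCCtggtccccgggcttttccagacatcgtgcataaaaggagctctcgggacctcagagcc
The RefSeq start of Tnfaip3 lies 247 bases inside the GENCODE gene, so only the 30 bases around each of its 2 matches are shown, at chr10:19015516-19015545 and chr10:19015411-19015440 (minus strand).
Tnfaip3 distal match: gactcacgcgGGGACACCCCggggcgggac
Tnfaip3 proximal match: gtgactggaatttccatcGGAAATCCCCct
The match began 29 bases before the start in Nfkbia, and 125 and 12 bases before it in Tnfaip3. In Cxcl2 the capitals are overlapping matches on both strands that began 97 and 96 bases before the RefSeq start, a distance that includes the 28 bases not shown. A match describes letters only: no binding was measured here.

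In neutrophils Il1b was the member with the most UMIs, and it was carried by nearly every neutrophil. Neutrophils held 1177, 1299, 1719 and 812 Il1b UMIs, which is 4683, 5106, 4501 and 4064 CPM. The share of neutrophils with at least 1 Il1b UMI was 92.8%, 93.1%, 90.7% and 92.0%, and after each cell was thinned to 500 UMIs it was 82.3%, 87.7%, 79.9% and 82.3%. All 4 libraries were thus high, with a mean of 4589 ± 432 CPM (SD, n = 4). The median neutrophil held 4, 5, 4 and 4 Il1b UMIs and the fullest cells held 24, 29, 18 and 14. Cells with 10 or more Il1b UMIs made up 11.8%, 16.7%, 7.94% and 9.71% of neutrophils, and the 10% of neutrophils with the most Il1b held 27.6% of its UMIs.

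**Figure D1:**
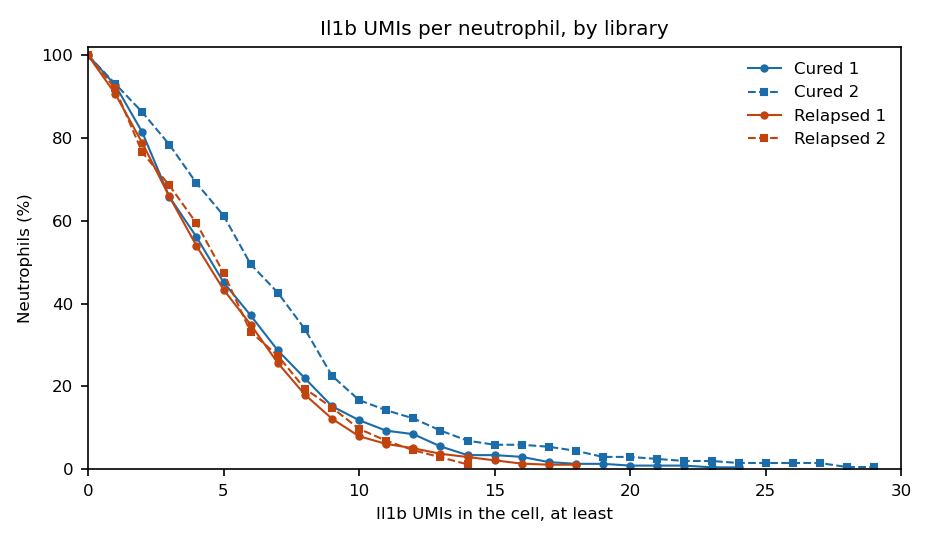
Share of gated neutrophils (%, vertical axis) with at least the number of Il1b UMIs on the horizontal axis, 1 line per library. Between 90.7% and 93.1% of neutrophils hold at least 1 UMI, and Cured replicate 2, which has the highest median depth, lies above the other libraries at each count.

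Outside neutrophils, Il1b followed the order non-classical monocytes, classical monocytes, lymphocytes, and the libraries of neighbouring classes did not overlap. Non-classical monocytes held 21, 36, 30 and 58 UMIs, or 440, 161, 226 and 289 CPM. Classical monocytes held 2, 5, 7 and 7 UMIs, or 40.6, 32.4, 65.7 and 55.6 CPM. Lymphocytes held 16, 12, 20 and 4 UMIs, which is 0.457 to 3.66 CPM, and 0.104% to 0.390% of them had a UMI. Within libraries, neutrophils exceeded non-classical monocytes by a log2 fold change of 4.60 ± 0.14 (SE, edgeR quasi-likelihood test with library as a block, adjusted p = 3.6e-220) and classical monocytes by 6.76 ± 0.19 (adjusted p = 2.59e-29). Classical monocytes were below non-classical monocytes by 2.11 on the log2 scale (SE 0.32, adjusted p = 3.3e-05), in all 3 libraries fitted. Cured replicate 1 had only 11 classical monocytes and was left out of both fits that involve this class.

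RNA released by broken cells can enter any droplet, so Il1b was also set against S100a8 and S100a9, abundant neutrophil transcripts. Neutrophils had 23.6 Il1b UMIs per 1000 UMIs of S100a8 and S100a9 (exact 95% interval 23.0 to 24.3, counting error only). B cells, which should lack all of these genes, had 44 Il1b and 1248 S100a8 and S100a9 UMIs in 11356 cells, a ratio of 35.3 per 1000 (25.5 to 47.6), and 11 of the 44 came from 1 B cell of Relapsed replicate 1. By library, 0.0904% to 0.437% of B cells had an Il1b UMI. Monocytes had 168 Il1b UMIs against 101 of S100a8 and S100a9, or 1663 per 1000 (1292 to 2151), an interval above those of neutrophils and B cells. The B cell interval also lay above that of neutrophils. The part of free RNA in the Il1b counts of either class was not tested. By library the monocyte ratio was 623 to 5500 per 1000, and 61 of the 101 UMIs were in Relapsed replicate 1. S100a8 and S100a9 are also neutrophil gate markers, and cells of mixed lineage were left out, which can lower their count outside neutrophils.

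Il1r2 and Il1rn, the genes that restrain interleukin-1, were detected in neutrophils and were near 0 elsewhere. Il1r2, the decoy receptor, had 105, 69, 153 and 85 UMIs in neutrophils, or 418, 271, 401 and 425 CPM, in 29.5%, 25.5%, 31.2% and 35.4% of cells. It had 2 UMIs in 88 classical monocytes, 1 in 218 non-classical monocytes and 9 in 13447 lymphocytes. The neutrophil libraries lay above every other class, and the other classes overlapped among themselves. Neutrophils exceeded non-classical monocytes by a log2 fold change of 7.66 ± 0.44 (edgeR, adjusted p = 5.43e-65). Il1r2 was too sparse in monocytes to pass the filter on low counts there, so it was tested only through its neutrophil counts. The p-value therefore describes the counts and is not support for a pattern.

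Il1rn, the receptor antagonist, had 48, 69, 74 and 42 UMIs in neutrophils, or 191, 271, 194 and 210 CPM. Cured replicate 2 was highest, also in the share of cells with a UMI (17.7%, 27.5%, 17.2% and 17.7%). Non-classical monocytes held 0, 3, 0 and 2 Il1rn UMIs, a log2 difference of 5.08 ± 0.39 from neutrophils (edgeR, adjusted p = 7.33e-38). As with Il1r2, the gene passed the filter on low counts only through neutrophils, so this p-value is a description. Classical monocytes had 0 of 436082 UMIs, so with 3 UMIs allowed for over the class the neutrophil level was at least 31.1-fold higher. Lymphocytes had 1 UMI in all.

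The median neutrophil had UMIs of 3 of the 9 genes, 16.3% had 5 or more and 1.61% had none. At 500 UMIs per cell these were 2 genes, 3.32% and 5.63%.

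**Figure D2:**
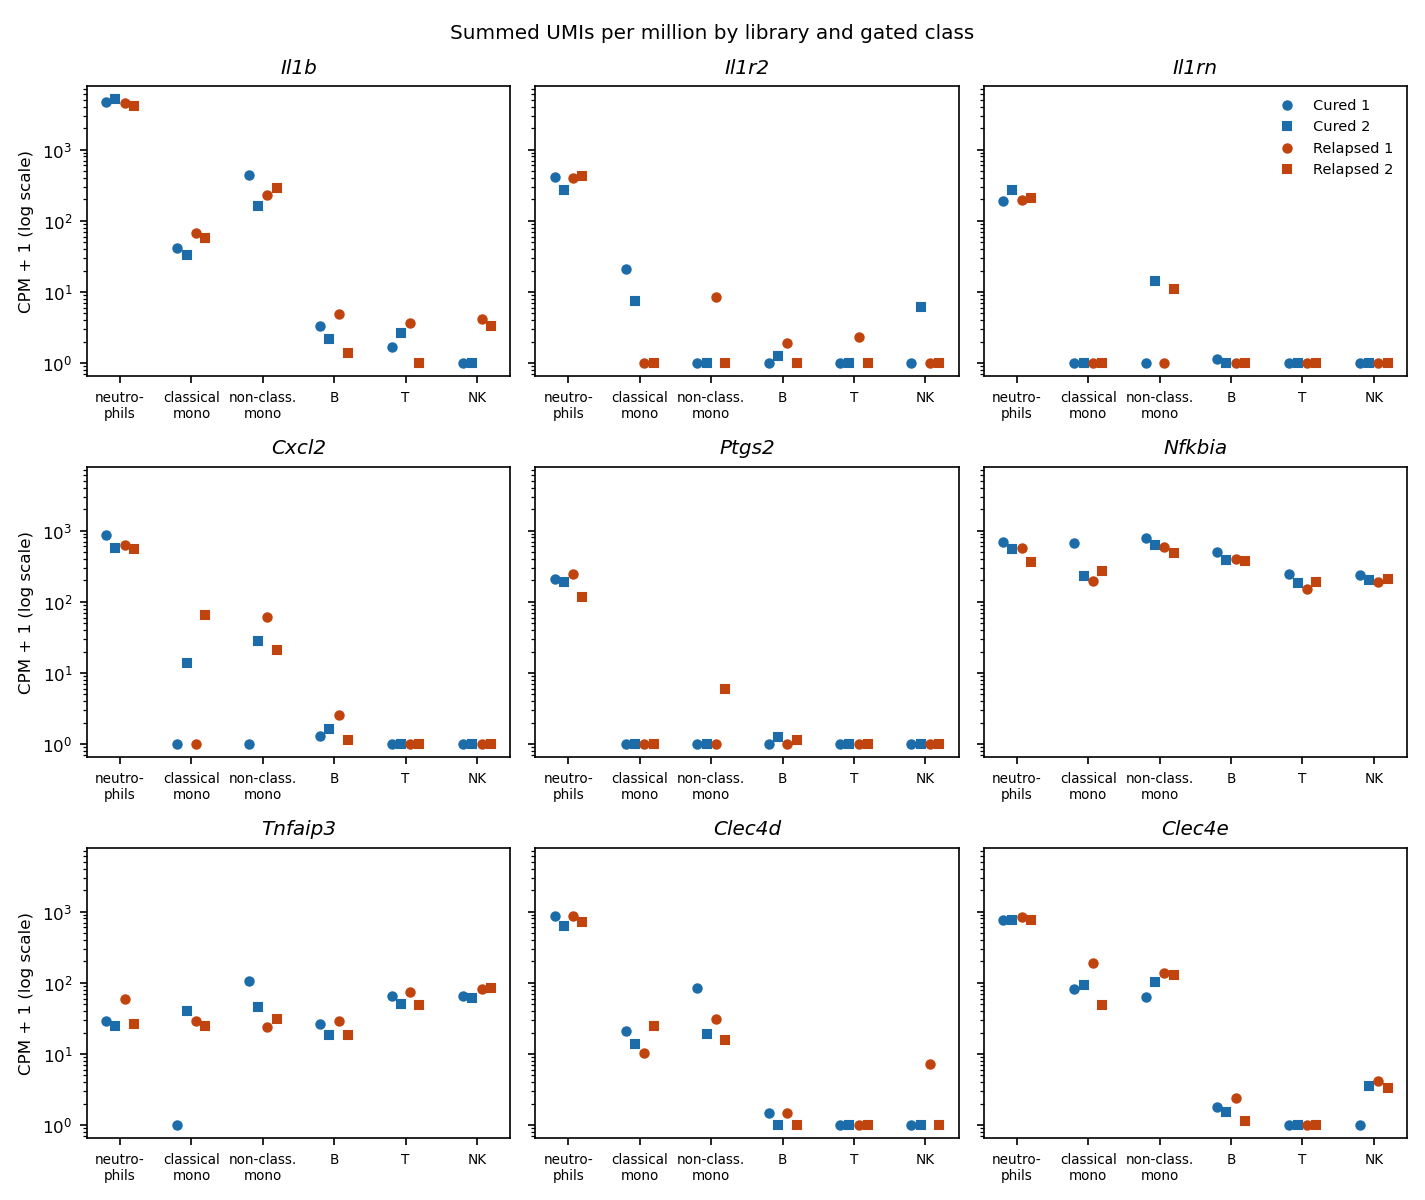
Summed UMIs of each of the 9 genes as CPM of the class (CPM + 1, log scale), by gated class, with 1 point per library. Il1b, Il1r2, Il1rn, Cxcl2, Ptgs2, Clec4d and Clec4e are highest in the neutrophils of each library, whereas several classes overlap in Nfkbia and Tnfaip3.

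Cxcl2, the chemokine gene, was concentrated in a minority of neutrophils. Its UMIs numbered 221, 146, 241 and 109, or 879, 574, 631 and 546 CPM, in 28.7%, 26.0%, 30.4% and 21.7% of cells. The fullest cells held 18, 13, 6 and 10 Cxcl2 UMIs, and the top 10% of neutrophils carried 68.1% of them, against 27.6% for Il1b. At 500 UMIs per cell this share was 69.1% for Cxcl2 and 28.8% for Il1b. The share also depends on how many UMIs a gene has, which thinning the cells does not make equal. From all UMIs it was 100% for Tnfaip3, 89.4% for Ptgs2, 59.7% for Il1rn, 55.0% for Nfkbia and 51.0% for Il1r2. For Clec4e it was 46.8% and for Clec4d 35.2%. Monocytes of either kind held 0, 11, 8 and 12 Cxcl2 UMIs, in 19 of 316 cells. Neutrophils exceeded non-classical monocytes by a log2 fold change of 4.70 ± 0.24 (edgeR, adjusted p = 1.79e-83). Cxcl2 did not pass the filter on low counts between the monocyte kinds, so this test rests on its neutrophil counts. T and NK cells had 0 Cxcl2 UMIs, which makes the neutrophil level at least 950-fold and at least 330-fold higher.

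Ptgs2, the inducible cyclooxygenase gene, had 52, 48, 94 and 23 UMIs in neutrophils, or 207, 189, 246 and 115 CPM. Only 12.7%, 12.7%, 14% and 8.0% of neutrophils had a Ptgs2 UMI, and Relapsed replicate 2 was the lowest library. Neutrophils exceeded non-classical monocytes by a log2 fold change of 6.65 ± 0.52 (edgeR, adjusted p = 7.3e-36). Ptgs2 also passed the filter on low counts only through neutrophils, so this p-value is a description. Across 316 monocytes 1 Ptgs2 UMI was found, and across 13447 lymphocytes 3. Classical monocytes had 0, so neutrophils were at least 29-fold higher.

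Nfkbia had a high level outside neutrophils as well. Neutrophils held 174, 142, 217 and 73 UMIs, or 692, 558, 568 and 365 CPM. Non-classical monocytes had 797, 637, 595 and 483 CPM, classical monocytes 670, 227, 197 and 270 CPM, and lymphocytes 441, 348, 347 and 347 CPM. The ranges of neutrophils and non-classical monocytes overlapped, and within each of the 4 libraries neutrophils had the lower CPM. The direction of the fitted log2 difference depended on the scaling. With TMM normalization, which left out the gate markers, it was 0.20 ± 0.14, higher in neutrophils (edgeR, adjusted p = 0.19), and 0.40 with an adjusted p of 0.0488 without the filter on low counts. Scaled to all UMIs of the class, markers included, it was -0.21 ± 0.13 (edgeR, adjusted p = 0.154), and the median log2 fold change of all genes went from -0.01 to -0.40. B cells (414 ± 58.6 CPM, SD, n = 4) lay above T cells (190 ± 37.7 CPM) and NK cells (207 ± 19.7 CPM), and T and NK cells overlapped.

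In Nfkbia, neutrophils exceeded classical monocytes by a log2 fold change of 1.34 ± 0.21 (edgeR, adjusted p = 5.21e-07) and lymphocytes by 0.60 ± 0.12 (adjusted p = 9.65e-07). In the comparison with lymphocytes the median log2 fold change of all 10246 genes tested was -0.79. Classical monocytes were below non-classical monocytes by 1.26 on the log2 scale (SE 0.21, adjusted p = 0.000115), in all 3 libraries fitted.

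Tnfaip3 was sparse everywhere. Neutrophils held 7, 6, 22 and 5 UMIs (27.9, 23.6, 57.6 and 25 CPM), with Relapsed replicate 1 above the rest. NK cells had the highest level, 71.8 ± 11.6 CPM (SD, n = 4), followed by T cells with 58.3 ± 12.2 CPM and non-classical monocytes with 50.5 ± 37.3 CPM, and these neighbours overlapped. The neutrophil mean was 33.5 ± 16.2 CPM. Its log2 difference from non-classical monocytes, 0.08 ± 0.45, and from lymphocytes, 0.26 ± 0.28, did not pass the test (edgeR, adjusted p = 0.887 and 0.411). Scaled to all UMIs of the class, the difference from non-classical monocytes was -0.32 ± 0.45 (edgeR, adjusted p = 0.536).

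The lectin receptor genes had close levels in neutrophils. Clec4d had 221, 159, 333 and 141 UMIs (879, 625, 872 and 706 CPM), in 53.6%, 50.5%, 56.6% and 53.7% of cells. Clec4e had 189, 196, 318 and 154 UMIs (752, 770, 833 and 771 CPM), in 42.2%, 49.0%, 41.3% and 46.3% of cells. They parted in monocytes, where Clec4e had 7, 37, 38 and 32 UMIs and Clec4d 5, 6, 5 and 6. Clec4e was thus found in 77 of 316 monocytes and Clec4d in 20. At 500 UMIs per neutrophil, with all libraries pooled, 33.0% of the 336 cells with Clec4d also had Clec4e, against 24.9% of the 658 without it. Cells are not replicates, and this difference was not tested.

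For Clec4d the neutrophil excess was 5.21 ± 0.24 on the log2 scale over non-classical monocytes (edgeR, adjusted p = 9.54e-101) and 5.72 ± 0.32 over classical monocytes (adjusted p = 2.88e-19). Clec4d, unlike Clec4e, did not pass the filter on low counts between the monocyte kinds, so these tests rest on its neutrophil counts. For Clec4e it was 3.16 ± 0.18 over non-classical monocytes (adjusted p = 7.09e-68) and 3.16 ± 0.23 over classical monocytes (adjusted p = 2.19e-15). Both monocyte kinds overlapped in Clec4e, with a log2 difference of -0.22 ± 0.32 (adjusted p = 0.682). T cells had 0 UMIs of either gene, so neutrophils were at least 1132-fold higher in Clec4d and at least 1136-fold higher in Clec4e. Whether the difference between the lectin genes in monocytes exceeds the spread between libraries was not tested.

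**Figure D3:**
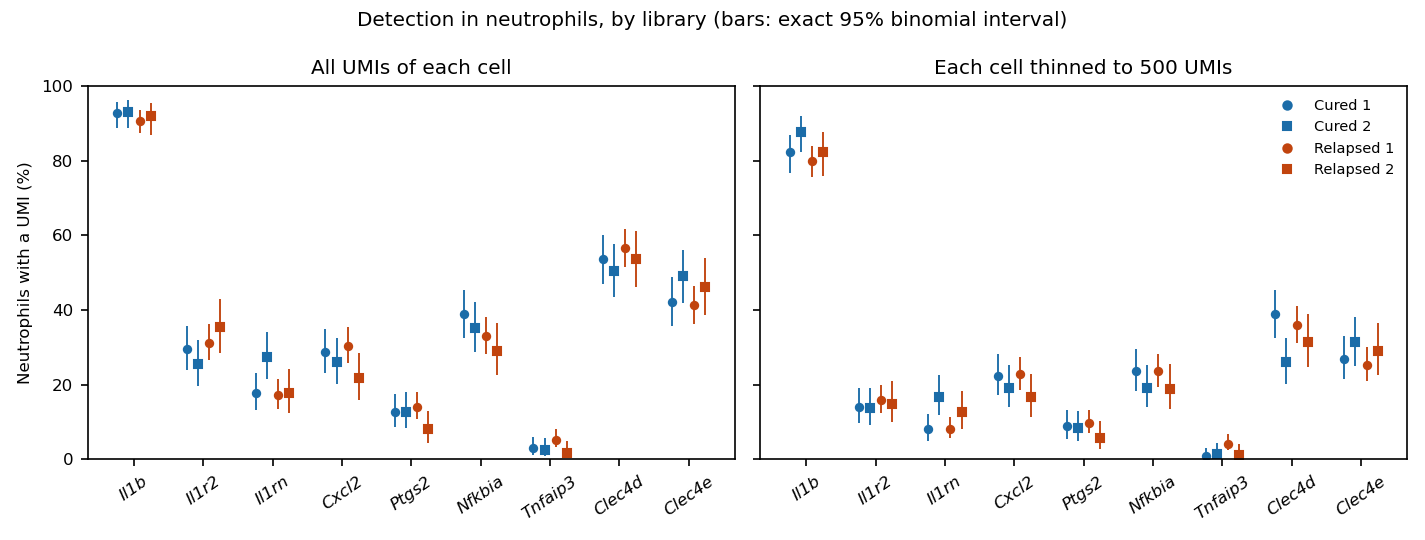
Share of gated neutrophils (%) with a UMI of each gene, by library, from all UMIs (left) and with each cell thinned to 500 UMIs (right), with exact 95% binomial intervals that cover counting error only. Il1b is found in 79.9% to 87.7% of thinned neutrophils and Tnfaip3 in 0.844% to 4.23%.

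Counted over the members, 7 of the 9 tested were higher in neutrophils than in non-classical monocytes and 0 were lower (edgeR, adjusted p threshold 0.05). Of all 3659 genes tested 65.9% were called, 32.3% as higher in neutrophils. These were 1182 genes higher and 1228 lower, against 859 and 1612 when scaled to all UMIs of the class. Against classical monocytes 8 of 8 tested members were higher, where 71.3% of 2712 genes were called, 35.7% as higher. Against lymphocytes 8 of 9 were higher, where 67.4% of 10246 genes were called, 22.5% as higher. Monocytes of either kind exceeded lymphocytes in 4 of 6 tested members, Il1b (log2 fold change 6.39 ± 0.27), Cxcl2, Clec4d and Clec4e, where 45.9% of 10252 genes were called, 20.3% as higher. Scaled to all UMIs, 2569 genes were higher and 1914 lower, in place of 2086 and 2617, and Nfkbia was also called there (log2 fold change 0.37 ± 0.09, edgeR, adjusted p = 0.000151). Between the monocyte kinds 2 of 3 tested members were called, both lower in classical monocytes, where 19.1% of 2268 genes were called, 11.2% as lower. A member passed the count filter mostly through its neutrophil counts, so these shares describe the members and are not support for a pattern.

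**Figure D4:**
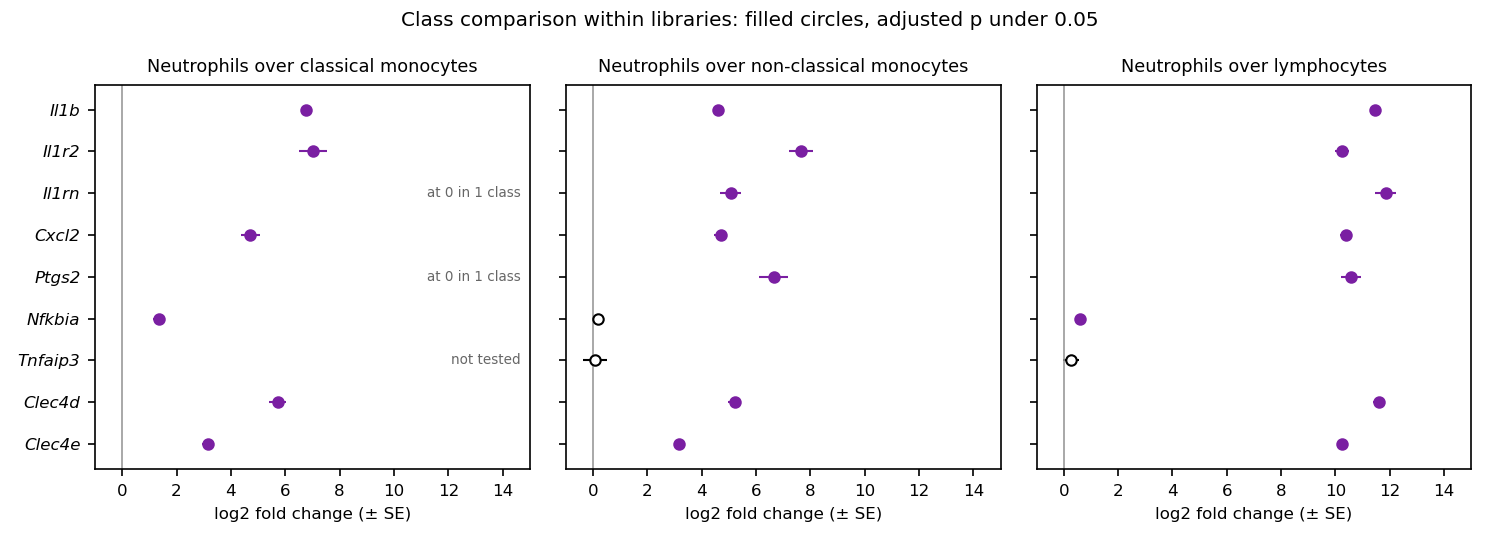
Log2 fold change (± SE) of each gene in neutrophils over classical monocytes (3 libraries), non-classical monocytes and lymphocytes (4 libraries each), from sums per library. Filled circles have an adjusted p under 0.05: Nfkbia and Tnfaip3 lie near 0 against non-classical monocytes, and Il1rn and Ptgs2 are not drawn where classical monocytes have 0 UMIs.

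Other genes of the interleukin-1 pathway differed in both directions between neutrophils and non-classical monocytes. Members left out, 10 genes of the interleukin-1 family and inflammasome list were tested: 4 were higher in neutrophils and 3 lower, where 65.9% of all genes were called and 32.3% were higher. Their median log2 fold change was 0.34 against -0.01 over all genes. Nlrp3, an inflammasome sensor, was higher by 3.28 ± 0.31 (edgeR, adjusted p = 3e-24). Pycard, the adaptor that joins sensor and protease, fell by 3.04 on the log2 scale (SE 0.34, adjusted p = 8.7e-18), and Casp1, the protease that cuts the interleukin-1 beta precursor, fell by 1.56 (SE 0.32, adjusted p = 4.03e-06). Gsdmd, whose product forms the pore of release, differed by -0.54 ± 0.28 and did not pass the test (adjusted p = 0.0807). Neutrophils thus had more Il1b and Nlrp3 RNA and less Pycard and Casp1 RNA than non-classical monocytes.

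The other lists, counted without the members as well, were mixed in the same comparison. Of 20 tested NF-kB feedback and target genes 8 were higher in neutrophils and 10 lower (median -0.77). Of 8 tested chemokine and receptor genes 6 were higher and 2 lower (median 2.10), among them Cxcr4, a marrow-homing receptor gene, at 1.99 ± 0.17 (edgeR, adjusted p = 1.16e-30). Of 6 tested eicosanoid genes 3 were higher and 0 lower, including Alox5, the 5-lipoxygenase gene, at 3.34 ± 0.32 (adjusted p = 3.52e-24). Of 14 tested C-type lectin receptor and signalling genes 5 were higher and 5 lower. Clec4a3, another lectin receptor gene, fell by 4.22 on the log2 scale (SE 0.23, adjusted p = 1.67e-72), opposite to Clec4d and Clec4e.

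The genes whose CPM across the 24 sums of 6 classes and 4 libraries were most like Il1b were C5ar1, the complement C5a receptor gene (Pearson r = 0.97), F630028O10Rik and 1600010M07Rik (both 0.97), out of 5090 candidates. Clec4d was closest to Csf3r, the receptor gene for granulocyte colony-stimulating factor (0.97), and Clec4e to Tnfaip2 (0.99). Csf3r is also a neutrophil gate marker, so its profile follows in part from the gating. Ptgs2 was closest to Asprv1 (0.98), Il1rn to Gm20406 (0.97) and Alox5 (0.96), Il1r2 to Gm16556 (0.95) and Cxcl2 to Trpm2 (0.93). Nfkbia and Tnfaip3 had weaker partners, Tspan13 (0.83) and Tulp4 (0.86). These correlations are descriptions: the sums share libraries, and neutrophils against the rest sets most of each value.

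Neutrophils also vary in how much granule RNA they still hold, which falls as the cells mature. Neutrophils were therefore split by any UMI of Ltf, Lcn2, Camp, Ngp or Mmp8 at 500 UMIs per cell, a comparison added after the data were seen. Il1b reached 4382, 4406, 4048 and 3337 CPM in the granule-positive cells and 5022, 6102, 4941 and 5234 CPM in the granule-negative cells. The granule-positive cells were also deeper, with median UMIs of 1088, 1231, 978 and 1086.5 against 885, 963, 852 and 871, and the part of depth in the result was not tested. Il1b was lower in the granule-positive cells of all 4 libraries, by a log2 change of -0.18 ± 0.07 that did not pass the test (edgeR, adjusted p = 0.107). Nfkbia differed by -0.40 ± 0.13, lower in 4 of 4 libraries (adjusted p = 0.071). Without Relapsed replicate 1 this became -0.49 ± 0.15 (adjusted p = 0.0488). None of the 8 tested members was called, where 3.21% of 1805 genes were. These calls depended on the scaling. Scaled to all UMIs of the cells, Il1b was called at -0.39 ± 0.08 (edgeR, adjusted p = 0.000118) and Nfkbia at -0.60 ± 0.14 (edgeR, adjusted p = 0.00082). Under that scaling the median of all genes was -0.21, and 19 genes were called higher and 133 lower, in place of 38 and 20.

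The comparison that the study was built for is Cured against Relapsed: whether blood drawn during remission differed between mice that stayed well and mice that relapsed. In neutrophils none of the 8 tested members was called. Il1b was 4683 and 5106 CPM in Cured and 4501 and 4064 CPM in Relapsed libraries, so the groups did not overlap, but the log2 fold change of 0.20 ± 0.18 did not pass the test (edgeR, adjusted p = 0.997). Clec4e was 752 and 770 CPM against 833 and 771 CPM, not overlapping in the other direction by less than 1 CPM between the nearest libraries (log2 fold change -0.07 ± 0.19). Among all 2626 genes 31.5% did not overlap between the groups, close to the 2 of 8 members, and 0% were called. At an unadjusted p under 0.05 there were 117 genes, none of them a member, and the DESeq2 Wald test also called 0.

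Nfkbia had the largest group difference in neutrophils among the 8 tested members, 692 and 558 CPM in Cured against 568 and 365 CPM in Relapsed libraries. The groups overlapped, and the log2 fold change of 0.41 ± 0.21 did not pass the test (edgeR, unadjusted p = 0.0689, adjusted p = 0.997). It was 0.74 without Relapsed replicate 1 and 0.17 without Relapsed replicate 2. Cxcl2 differed by 0.30 ± 0.21, Il1rn by 0.21 ± 0.27, Ptgs2 by 0.08 ± 0.30, Clec4d by -0.07 ± 0.20 and Il1r2 by -0.25 ± 0.23, all with adjusted p = 0.997. Tnfaip3 did not pass the count filter.

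In monocytes of either kind 4 members were tested and none was called, against 7 of 3707 genes (0.189%). Nfkbia was 732 and 468 CPM in Cured and 405 and 397 CPM in Relapsed libraries. These groups did not overlap, and the log2 fold change was 0.50 ± 0.21 (edgeR, unadjusted p = 0.0188, adjusted p = 0.754). It was 0.23 without Cured replicate 1, the library with 35 monocytes, and 0.84 without Cured replicate 2. In non-classical monocytes alone it was 0.38 ± 0.27 (adjusted p = 0.999), where 0 of 2522 genes were called. Il1b was 237 and 106 CPM against 149 and 198 CPM (log2 fold change -0.31 ± 0.30, adjusted p = 0.971). Clec4e was 72.2 and 95.2 CPM against 149 and 96.2 CPM (-0.42 ± 0.33, adjusted p = 0.966) and Tnfaip3 51.6 and 41.2 CPM against 23.6 and 33.1 CPM (0.60 ± 0.55, adjusted p = 0.966). Of these 4 genes 3 did not overlap between the groups, where 34.7% of all genes did not. In non-classical monocytes 2 of 3 tested members, Nfkbia and Clec4e, did not overlap, against 29.9% of all genes.

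**Figure D5:**
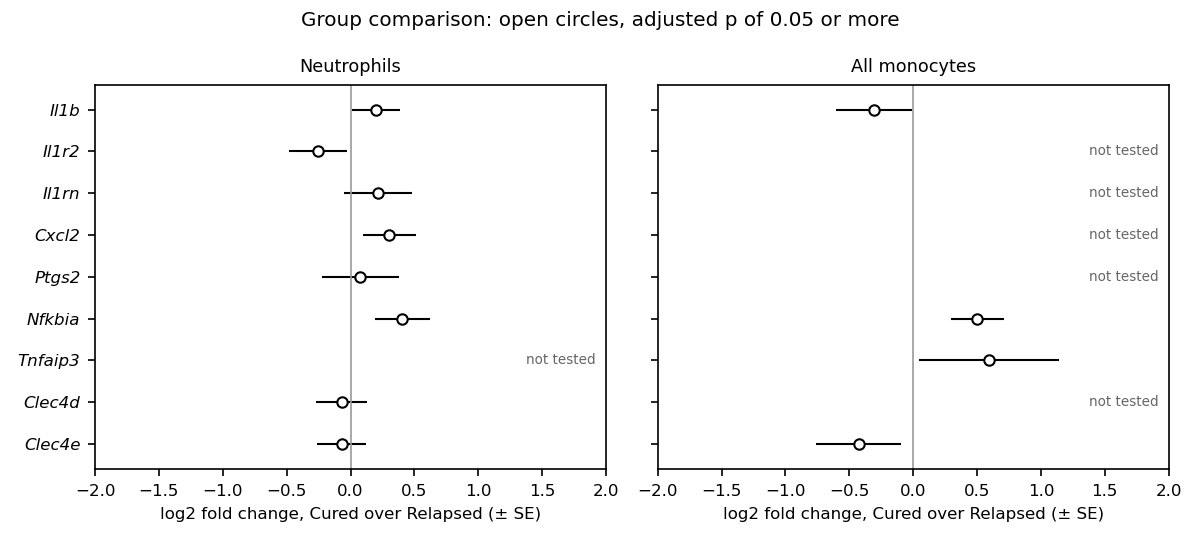
Log2 fold change (± SE) of each gene, Cured over Relapsed, in gated neutrophils (left) and monocytes of either kind (right), from 2 libraries per group. All circles are open, since no adjusted p is under 0.05, and Nfkbia lies at 0.41 in neutrophils and 0.50 in monocytes.

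A list of immediate early and thaw stress genes, which can rise when cells are handled or thawed, was counted beside Nfkbia. In neutrophils 12 of 15 tested genes of that list had a positive log2 fold change (median 0.25 against -0.01 over all genes) and none was called, with Egr1, a transcription factor gene, at 0.80 ± 0.33, Zfp36, an RNA-decay factor gene, at 0.39 ± 0.19 and Dusp1, a phosphatase gene, at 0.31 ± 0.21. In monocytes 13 of 17 were positive (median 0.23) and Hspa8, a heat-shock cognate chaperone gene, was called (log2 fold change 0.67 ± 0.16, edgeR, adjusted p = 0.0415). Jund, an AP-1 subunit gene, was at -0.45 ± 0.20 there and was not called. In B, T and NK cells 11 of 16, 11 of 16 and 14 of 17 were positive and none was called. Nfkbia was at 0.20 ± 0.16, 0.29 ± 0.18 and 0.11 ± 0.20 there, so the positive values were not particular to myeloid cells. The part of handling or thawing in the Nfkbia values was not tested. None of the genes of the interleukin-1, NF-kB, eicosanoid and lectin lists was called in neutrophils or monocytes. In the chemokine list Ccl5 was called in monocytes, at 82.5 and 376 CPM in Cured and 11.8 and 15 CPM in Relapsed libraries (log2 fold change 4.33 ± 0.66, adjusted p = 0.0415). Of its 162 UMIs there, 146 were in Cured replicate 2. Without that library the log2 fold change was 2.53 ± 1.08 (edgeR, adjusted p = 0.894), and without Relapsed replicate 2 it was 4.58 ± 0.97 (adjusted p = 0.124). Under the stricter gate and with cells thinned, Ccl5 did not pass the count filter in monocytes and had no value. With mixed cells kept its log2 fold change was 1.28 ± 0.20 and was called. NK cell markers in these monocytes summed to 20.6 and 38.6 CPM in Cured and 35.3 and 9.01 CPM in Relapsed libraries. T cell markers summed to 20.6 and 15.4 CPM in Cured and 0 and 6.01 CPM in Relapsed libraries, with Trac and Lat at 0 in all 4. The part of other cells in the Ccl5 value was not tested. In the list of interferon-stimulated genes, 6 of 7 tested had a positive log2 fold change in neutrophils (median 0.31) and 6 of 7 in monocytes (median 0.46). None of these was called. In B, T and NK cells 11 of 12, 6 of 6 and 3 of 4 genes of the list were positive, and none was called either. Of the 7 genes called in monocytes, 6 were higher and 1 was lower in Cured libraries. Among the higher were Ifi27l2a (log2 fold change 0.84 ± 0.13, edgeR, adjusted p = 2.63e-05) and Gbp2 (1.56 ± 0.35, adjusted p = 0.0415), which are not on that list.

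Classical monocytes were too few for a group test, with 11 cells in Cured replicate 1. In B, T and NK cells the tested members, 3, 2 and 2 in number, were not called, and 0 of 10257, 6530 and 4641 genes were (edgeR; at the unadjusted level of 0.05 there were 894, 555 and 304, and the DESeq2 Wald test called 7, 1 and 0). The change between groups was also compared between neutrophils and monocytes with an interaction term: none of the 9 members was called, against 2 of 4002 genes (0.05%). For Il1b that difference was 0.57 ± 0.28 on the log2 scale (unadjusted p = 0.0448, adjusted p = 1). With 2 pools per group, a missed threshold does not show that these genes were equal in Cured and Relapsed mice.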

How the data were processed

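Libraries were made with the Chromium 5′ kit, per the labels' protocols, and Cell Ranger 3.1.0 and build mm10 are named in the submitters' processing notes. The authors deposited, for each library, raw UMI counts per gene and cell barcode, as whole numbers with no normalization, 3631 to 4383 barcodes and 7184045 to 10840397 UMIs. The counter's strand setting and any doublet removal are not given in the sources used here. No doublet caller was run: cells with markers of more than 1 lineage were left out.

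Cells with at least 200 genes and at most 10% mitochondrial UMIs were kept. Cells were gated by the number of markers with a UMI: neutrophils at least 5 of 14, monocytes 3 of 7, classical 3 of 6 or non-classical 3 of 11, B cells 4 of 9, T cells 3 of 8 and NK cells 4 of 8. The cut-offs were set after the marker distributions were seen, 6 markers present in B cells were set aside, and 52 cells lay at the neutrophil cut-off. Counts were summed per library and class. Sums were compared with edgeR 4.0.16 (TMM, filterByExpr, robust quasi-likelihood test, Benjamini-Hochberg over all tested genes, threshold 0.05), fitted where each library had at least 20 cells. This test draws a gene's spread partly from other genes. For a typical gene it came wholly from them in neutrophils against non-classical monocytes or lymphocytes, monocytes against lymphocytes, and the interaction. The very small p-values there do not measure a gene's own spread between pools. Comparisons between classes had the library as a block, and left out the gate markers. For classical monocytes they used 3 libraries, a change from the planned 4. Shares have exact Clopper-Pearson 95% intervals, and a count of 0 is read as up to 3 counts, both for counting error only. Thinning drew 500 UMIs per cell (every cell kept had at least 500). CPM are UMIs per 1000000 of a sum. DESeq2 1.42.0 gave an alternative test. The scripts were tested on simulated data. Figures used matplotlib 3.10.9 under Python 3.11.15, with R 4.3.3.

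The members, gene lists, gates and tests were chosen with earlier results of these data known. The text names the 9 members in every class and the genes of most similar profile. Other list genes named are from the 3 with the smallest p of each list in the group comparisons of neutrophils and monocytes, not all of which are printed. Ifi27l2a and Gbp2 are not on the interferon-stimulated list and were named after their values were seen. Clec7a was not analysed here, and protein sequences were not used here. Promoter sequences are from RefSeq (GRCm38.p6), and all 9 members were matched by symbol. Scaling to all UMIs of a class was added after the data were seen. Alternatives changed normalization, test, filter, gate, depth, mixed cells, blocks and libraries.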

Additional observations from a re-analysis of the deposited data

Results flagged for a closer look

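The difference between Cured and Relapsed libraries was larger in monocytes than in neutrophils for Ccl5, a chemokine gene, by an interaction term of -3.74 ± 0.66 on the log2 scale (edgeR, adjusted p = 0.00032). Of the 162 Ccl5 UMIs in monocytes 146 were in Cured replicate 2, and without that library the term was smaller and not called (edgeR, adjusted p = 0.986). It was also not called without Relapsed replicate 1 (-3.02), without Relapsed replicate 2 (-4.27), with cells thinned (-2.83), with mixed cells kept (-3.48), under the stricter gate (-1.77) or by the DESeq2 Wald test (-3.49). Gm42418, which was chosen after its values were seen, differed in the other direction, by 0.73 ± 0.16 (edgeR, adjusted p = 0.0106). It was called with DESeq2 size factors (0.69), under the stricter gate (0.97) and without Cured replicate 1 (1.06), and lost its call under the other 7 alternatives. None of the 9 members was called for this interaction term.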

How the results depend on the processing

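The members' called differences between classes kept their direction and their call in 337 of 337 values under alternatives. Il1r2, Il1rn, Cxcl2, Ptgs2 and Clec4d passed the count filter there mostly through their neutrophil counts, which left little room for change. This count is therefore a description and not support for a pattern. Of 296 values of uncalled members, 265 kept both, 26 took the other direction and 5 became called. The counts of called genes over the whole table moved more. Leaving out 1 library at a time gave these ranges of called genes: neutrophils 0 to 21, non-classical monocytes 0 to 9, all monocytes 5 to 22, B cells 8 to 2183, T cells 0 to 349, NK cells 2 to 162, classical against non-classical monocytes 191 to 400, the granule split 14 to 50 and the interaction 0 to 5. The DESeq2 Wald test gave counts of 3 in all monocytes, 7 in B cells, 1 in T cells, 121 in classical against non-classical monocytes, 7 in the granule split and 0 in the interaction. No count filter gave counts of 3 in neutrophils, 201 in B cells, 23 in T cells, 6 in NK cells, 27 in the granule split and 1 in the interaction. Thinning each cell to 500 UMIs gave counts of 2 in neutrophils, 2 in non-classical monocytes, 0 in all monocytes, 1 in B cells, 595 in neutrophils against classical monocytes, 856 in neutrophils against non-classical monocytes, 78 in classical against non-classical monocytes, 1869 in monocytes against lymphocytes and 0 in the interaction. Keeping mixed cells gave counts of 1 in neutrophils, 5 in non-classical monocytes, 13 in all monocytes, 1 in NK cells and 0 in the interaction. A stricter gate gave counts of 13 in all monocytes and 1 in the interaction. The replicate block gave counts of 14 in all monocytes, 185 in B cells, 17 in T cells and 6 in NK cells. Dropping the library block gave counts of 15 in the granule split. Scaling to all UMIs of the class gave counts of 152 in the granule split. Of the uncalled log2 fold changes, these took the other direction, all uncalled: Il1r2 in neutrophils at 0.018 (thinned), Ptgs2 in neutrophils at -0.096 (thinned), Il1b in non-classical monocytes at 0.032 (thinned), Il1b in non-classical monocytes at 0.065 (mixed cells kept), Il1b in all monocytes at 0.16 (mixed cells kept), Nfkbia in neutrophils against non-classical monocytes at -0.21 (scaled to all UMIs), Tnfaip3 in neutrophils against non-classical monocytes at -0.32 (scaled to all UMIs), Nfkbia in monocytes against lymphocytes at -0.20 (thinned), Tnfaip3 in monocytes against lymphocytes at -0.078 (no library block), Clec4d in the granule split at -0.00066 (DESeq2 size factors), Clec4d in the granule split at -0.20 (scaled to all UMIs) and Clec4e in the granule split at -0.059 (scaled to all UMIs). Leaving out a library gave a change of direction within these ranges: Il1rn in neutrophils -0.099 to 0.45, Cxcl2 in neutrophils -0.018 to 0.55, Ptgs2 in neutrophils -0.28 to 0.74, Clec4d in neutrophils -0.32 to 0.13, Il1b in non-classical monocytes -0.66 to 0.70, Il1b in all monocytes -0.72 to 0.40, Clec4e in classical against non-classical monocytes -0.67 to 0.18, Tnfaip3 in neutrophils against lymphocytes -0.054 to 0.41, Tnfaip3 in monocytes against lymphocytes -0.16 to 0.43, Il1r2 in the granule split -0.095 to 0.088, Clec4d in the granule split -0.090 to 0.044 and Clec4e in the granule split -0.068 to 0.31. The high counts without a library came without Relapsed replicate 2 for neutrophils, all monocytes, B, T and NK cells, and the cause was not tested. Same-numbered libraries had correlations of -0.061 to 0.084 in their deviations. These cannot decide whether the numbers pair the libraries, since the replicate block changed several counts of called genes. No member's call changed with that block. With all 4 libraries, 2079 and 553 genes were called for neutrophils against classical and for classical against non-classical monocytes. Thinning moved 155 of 288 shares of cells with a UMI, keeping mixed cells 30 and the stricter gate 2. The stricter gate left too few non-classical monocytes for a value, and Cured against Relapsed in classical monocytes was not run. Depth limits the sparse members: Tnfaip3 in neutrophils and Il1r2, Il1rn and Ptgs2 in monocytes rest on few UMIs.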
